A study of Caenorhabditis elegans with 2 samples.

Results

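The 69 genes described here encode proteins of the mitochondrial ribosome of Caenorhabditis elegans. They were taken by name alone, as the protein-coding genes of Ensembl's WBcel235 annotation whose symbol is mrps or mrpl followed by a number and, in some, a letter. They are 28 small subunit (mrps) and 41 large subunit (mrpl) genes, out of 19973 protein-coding genes on the nuclear chromosomes. RNA polymerase II was mapped at these genes by chromatin immunoprecipitation and sequencing with an antibody against AMA-1, its large subunit, in whole L1 larvae of the wild-type strain N2. The animals were populations of both sexes of unknown age, with no mutation or treatment in the labels. The 2 biological replicates form 1 group, so there is no contrast between conditions and no p-value. Counts of these genes are set beside the same counts over all 19973 genes. Each replicate, and the pool of both, has a list of 30000 regions with a signal from the authors' peak caller, and a thresholded consensus list holds 1328 regions with signals from 34.3 to 803. A gene was taken to carry a region when the region's summit fell inside the gene body or in the 500 bp ahead of its 5' end. Read numbers are not stated in the labels or files used, and the depth is unknown. Whole larvae mix all tissues, so more cells with polymerase at a gene and more polymerase per cell cannot be told apart.

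Mitochondria keep ribosomes of bacterial descent, which translate the few messages of the mitochondrial DNA into core subunits of the respiratory chain and ATP synthase. Their RNAs come from the mitochondrial DNA, but all of their proteins are encoded in the nucleus, transcribed by RNA polymerase II, made in the cytosol and imported. In worms, lowering mrps-5 is known to set off the mitochondrial unfolded protein response and to lengthen life. Many worm genes of this kind sit in operons, where the downstream genes are transcribed from the promoter of the first gene and cut apart by trans-splicing.

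Regions at several of the highest-signal genes held the same 13-base word, and the sequences are shown for that reason. They are the 101 bases centred on the pooled summit of 5 of the 8 genes with a consensus peak. Each is read 5' to 3' on the gene's strand from the RefSeq genome of the same assembly, ce11. The other genes with a consensus peak, mrps-6, mrpl-17 and mrpl-13, are not shown. They hold no copy of the word in the gene body or the 500 bp ahead of it, and neither do mrps-7 and mrps-21. Capitals mark the shared word TGTCCGCAAACAC and the letters CTGCGTC or their reverse complement GACGCAG. The stretches lie at chrIV:14767843-14767943 (mrps-7, minus strand), chrIII:8449371-8449471 (mrpl-32, plus), chrII:156069-156169 (mrpl-28, minus), chrII:5474088-5474188 (mrps-16, plus) and chrIV:4659358-4659458 (mrps-21, minus). The first 4 lie upstream of the gene and overlap no annotated coding exon or UTR, and that of mrps-21 overlaps its own coding sequence.
mrps-7: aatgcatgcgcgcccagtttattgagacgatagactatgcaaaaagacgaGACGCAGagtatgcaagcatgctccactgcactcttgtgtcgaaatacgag
mrpl-32: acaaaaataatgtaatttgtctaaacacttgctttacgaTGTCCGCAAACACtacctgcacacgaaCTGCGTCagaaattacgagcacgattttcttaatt
mrpl-28: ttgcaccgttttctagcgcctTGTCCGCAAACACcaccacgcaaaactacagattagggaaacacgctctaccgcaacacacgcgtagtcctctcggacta
mrps-16: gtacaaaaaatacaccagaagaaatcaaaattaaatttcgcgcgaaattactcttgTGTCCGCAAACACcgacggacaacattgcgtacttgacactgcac
mrps-21: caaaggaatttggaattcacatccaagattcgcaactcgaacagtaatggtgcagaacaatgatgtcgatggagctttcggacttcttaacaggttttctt

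The word TGTCCGCAAACAC stood in the same orientation as the gene in mrpl-32, mrpl-28 and mrps-16. Its middle lay 5 bp upstream of the pooled summit in mrpl-32, where the position is -5, and at -23 in mrpl-28 and 12 in mrps-16. From the annotated 5' end it lay at -341, -133 and -223 bp in that order. On either strand the word occurs 28 times in the whole genome, and 3 of the 69 gene windows hold it (4.35%), against 26 of all 19973 (0.13%). In the 101 bases around a summit it was found at 5 of the 1328 consensus peaks (0.377%) and at 14 of the 30000 pooled regions (0.0467%). So 3 of the 5 consensus peaks with the word belong to mitochondrial ribosomal protein genes. The other two lay upstream of lsm-6, which encodes a protein of the ring that binds U6 snRNA, and of F13H8.2. The word was picked as the longest shared by the summits of at least 3 of these genes, after their sequences were seen, so these counts describe it and do not test it.

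Nearly every mitochondrial ribosomal protein gene carried a listed region, while few had a strong one. A pooled region was found at 62 of 69 (89.9%, exact 95% binomial interval 80.2 to 95.8), against 42.8% of all protein-coding genes, a ratio of 2.1. The interval covers only the counting of genes. The same count was 62 of 69 in replicate 1, against 42.6%, and 57 of 69 (82.6%) in replicate 2, against 44.8%. Both replicates had a region at 53 (76.8%, interval 65.1 to 86.1), against 34.7%. The genes are short, with a median length of 1127 bp against 2027 bp for all protein-coding genes, so their windows offer less room. With a fixed stretch of 500 bp on either side of the 5' end, a pooled region was found at 55 (79.7%, interval 68.3 to 88.4), against 32.5% of all genes.

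**Figure D1:**
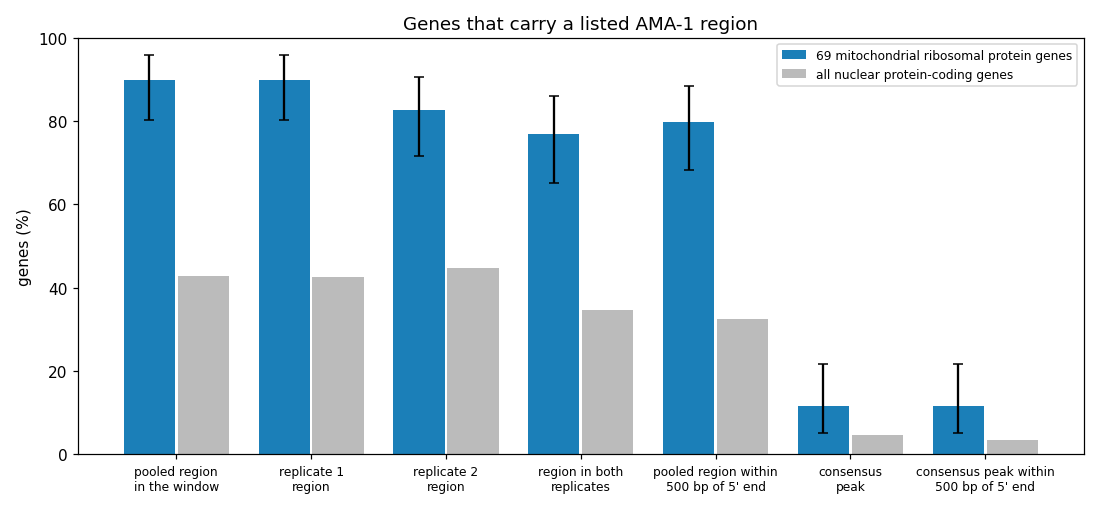
Percent of genes with a listed AMA-1 region, for the 69 mitochondrial ribosomal protein genes (blue, bars with exact 95% binomial intervals) and for all 19973 nuclear protein-coding genes (grey). The blue bars are above the grey ones in every pair, from 89.9% against 42.8% for a pooled region to 11.6% against 4.68% for a consensus peak.

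The level of those regions was ordinary. Among genes with a region, the median pooled signal of the highest region was 14.9 in the 62 ribosomal protein genes, with quartiles of 11.1 and 22, and 13.7 in the 8553 protein-coding genes that had any. In replicate 1 these medians were 9.69 and 9.48, and in replicate 2 they were 5.91 and 6. With these windows, the excess was thus in how many genes had a region and hardly in how high the region was. The median length over all genes is greater, so their highest region is mostly taken over more sequence. Levels in windows of equal length were not compared. In all, 98 pooled regions fell in the windows: 34 genes had 1, 21 had 2, 6 had 3, and mrpl-45, whose mammalian counterpart sits at the exit of the nascent chain tunnel, had 4 and was singled out after its values were seen. Sequence repeats touched few genes, since every 31-base word of 51 windows was single-copy, and 4 windows, those of mrpl-15, mrps-35, mrpl-38 and mrpl-20, were under 90% unique.

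Consensus peaks lay at 8 of the 69 genes (11.6%, interval 5.14 to 21.6), against 4.68% of all protein-coding genes, and all of the 8 summits lay within 500 bp of the 5' end, where the share of all genes was 3.44%. Consensus peaks are the pooled regions of highest signal, so the 8 are simply the 8 highest of the 69.

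mrps-7 had the highest signal, with 74.9 in the pool (rank 209 of 30000), 48.0 in replicate 1 and 25.3 in replicate 2. It encodes the relative of bacterial S7, which starts the assembly of the small subunit's head. The summit lay at chrIV:14767893, at -163 bp, and the replicates put it at -163 and -176 bp. This summit is also in the window of Y57G11C.3, which runs the other way from a 5' end 470 bp off, and chromatin immunoprecipitation carries no strand that could divide the signal between them.

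mrpl-32 had 71.4 in the pool, 46.5 in replicate 1 and 28.5 in replicate 2, with a summit at -336 bp (chrIII:8449421). In mammals and yeast its protein is cut by the m-AAA protease of the inner membrane before it joins the large subunit. Its ranks in the replicates, 279 and 271, were the closest to each other of all the genes with a region in both. The gene follows rpn-3, a proteasome subunit gene on the same strand, after a gap of 410 bp, and the summit lies inside that gap. It is nearer the 3' end of rpn-3 than the 5' end of mrpl-32, and the listed region reaches back into rpn-3. Polymerase past the end of rpn-3 and ahead of mrpl-32 cannot be told apart there.

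mrpl-28, for a large subunit protein of a bacterial family, had 50.2 in the pool, 28.7 in replicate 1 and 21.8 in replicate 2, at -110 bp (chrII:156119). mrps-16, for the relative of bacterial S16, had 36.8, 25.6 and 13.3 in the same order, at -235 bp (chrII:5474138). mrps-21 had 36.5, 24.5 and 12.5, at 109 bp inside its coding sequence (chrIV:4659408). In each of these 3 genes the summits of the replicates lay on the same side of the 5' end as that of the pool.

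The other three with a consensus peak lie on chromosome I. mrps-6, whose bacterial relative pairs with S18, had 41.4 in the pool, 25.3 in replicate 1 and 14.6 in replicate 2, with a summit at 311 bp in an intron (chrI:4174463). mrpl-17 had 35.8, 14.8 and 19.8, at -233 bp (chrI:3162580), in a stretch it shares with the divergent gene vbh-1. mrpl-13 had 34.8, 20.9 and 11.8, at 66 bp in its coding sequence (chrI:7307183). By rank, mrpl-17 stood higher in replicate 2 (720, against 3769 in replicate 1). So did mrpl-28 (544 against 891) and, narrowly, mrpl-32 (271 against 279), while the rest of the 8 stood higher in replicate 1. For the 8 genes together, 6 peaks were in the window of no other annotated gene, piRNA genes aside. A window stops at the gene's 3' end, so a summit just past a neighbour's 3' end is not counted as shared. Among the 6, mrpl-32, mrps-21 and mrpl-13 follow a same-strand gene after gaps of 410, 113 and 104 bp. Polymerase past the end of that gene and polymerase of the ribosomal protein gene cannot be told apart there.

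The genes that follow in the order came close to the consensus limit of 34.3. mrpl-49 had 33.8 in the pool, 23.8 in replicate 1 and 9.96 in replicate 2, at -169 bp, in a summit that is also in the window of rpl-28, a cytosolic ribosomal protein gene. mrps-17, for a relative of bacterial S17, had 31.5, 16.9 and 14.7. mrpl-50 had 30.3, 19.0 and 11.7, and mrpl-41 had 29.8, 28.4 and 6.90, with the summit at 88 bp in replicate 1 and at -464 bp in replicate 2. After a step down came mrpl-23, whose bacterial relative lies at the mouth of the exit tunnel, with 23.2, 14.5 and 6.94. Its pooled summit is also in the window of ech-1.2. The pooled values from mrpl-13 to mrpl-41 thus form a gradual slope across the limit, and the limit does not separate a distinct set.

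**Figure D2:**
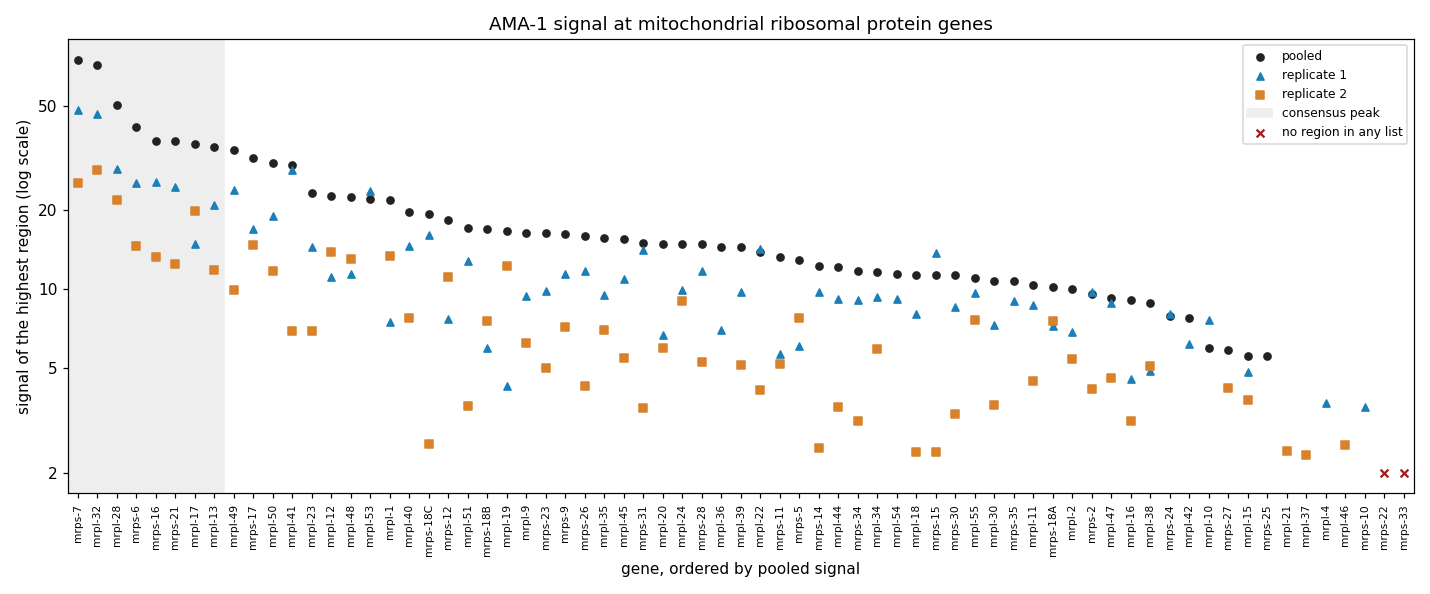
Signal of the highest region in the window of each of the 69 genes, on a log scale, in the pool (black circles), replicate 1 (blue triangles) and replicate 2 (orange squares), ordered by pooled signal; a missing symbol means no listed region. Grey marks the 8 genes with a consensus peak, led by mrps-7 at 74.9, and red crosses the 2 genes with no region in any list.

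At the low end, 7 genes had no pooled region. mrps-22 and mrps-33 had none in any list. mrpl-21 (2.41), mrpl-37 (2.33) and mrpl-46 (2.55) had a region in replicate 2 only, and mrpl-4 (3.68) and mrps-10 (3.55) in replicate 1 only. These values lie near the lowest signals of the 2 replicate lists, 3.11 for replicate 1 and 2.22 for replicate 2. Each list is a fixed number of regions, so a gene without one may have signal under the list's lowest value. mrps-22 comes directly after dap-3, the gene for a GTP-binding protein of the small subunit that its name kept out of the 69.

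The 2 subunits were close in pooled signal. A pooled region was found at 25 of 28 small subunit genes and at 37 of 41 large subunit genes, with a median signal of 14.9 in each, and a consensus peak at 4 of 28 and 4 of 41. Without replicate 1, the highest regions reached 1 small subunit gene and 3 large subunit genes. A split by the origin of the proteins was less even. In the shared nomenclature, mrps genes up to 21 and mrpl genes up to 36 carry the numbers of bacterial families, and higher numbers belong to proteins added in mitochondria. The 8 consensus peaks were all at genes of the first kind, 8 of 40, and none of the 29 genes of the second kind had one. The 2 kinds were close in median signal, at 15.7 and 14.5, and in genes with a pooled region, at 37 of 40 and 25 of 29. A region in both replicates was found at 35 of 40 and 18 of 29. The second kind includes mrpl-49, mrpl-50 and mrpl-41, which lie just under the limit, and this split was chosen after the values were seen.

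Among proteins with known places on the ribosome, the factor-binding stalk of the large subunit spanned a wide range. mrpl-12, for the stalk protein that recruits translation factors, had 22.6 in the pool, 11.1 in replicate 1 and 13.9 in replicate 2. mrpl-11, for a protein of the stalk base, had 10.4, 8.70 and 4.47. mrpl-10, which anchors the stalk, had 5.97 in the pool and 7.64 in replicate 1, and no region in replicate 2. In the small subunit, mrps-12, which encodes a protein of the decoding centre, had 18.3, 7.67 and 11.1. mrps-5 had 12.9, 6.07 and 7.79, at -152 bp, in a summit that is also in the window of its upstream neighbour sel-1. These stalk and decoding centre genes, mrps-5 aside, were named after their values were seen.

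Summits gathered at the 5' ends. Of the 62 highest pooled summits, 50 (80.6%) lay within 500 bp of the annotated 5' end, against 57.1% over the 8553 protein-coding genes with a region, whose longer bodies offer more room away from it. Upstream of the gene lay 30 (48.4%), against 34.1%. Inside the gene, 21 lay in a coding exon, 9 in an intron and 2 in a 3' UTR. The median position was 28.5 bp, against 238 bp for all genes. The summits farthest from the 5' end were those of mrpl-44 (2856 bp), whose mammalian protein has an RNase III fold, mrpl-22 (2392 bp, in the 3' UTR), mrpl-2 (1771 bp) and mrps-9 (1538 bp), named after their values were seen. In worms an annotated 5' end is often the trans-splice site and not the place where transcription starts. Of the 62 summits, 21 were also in the window of another protein-coding gene, and the same share over all genes was not computed.

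**Figure D3:**
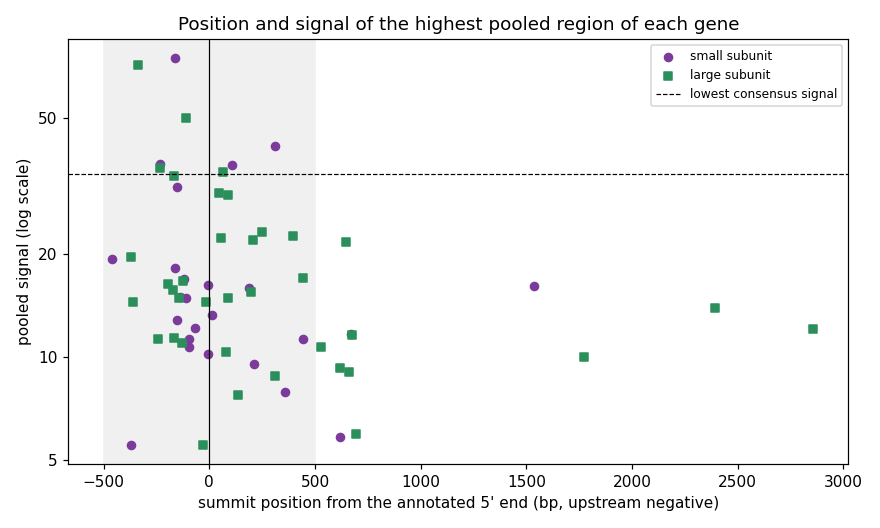
Pooled signal (log scale) against the position of the highest pooled summit from the annotated 5' end, upstream negative, for the 62 genes with a pooled region, by subunit. Grey marks 500 bp on either side of the 5' end, which holds 50 of the 62 summits and all 8 above the dashed line at the lowest consensus signal, 34.3.

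Many of the genes sit behind a neighbour. The 5' end of 28 of the 69 (40.6%, interval 28.9 to 53.1) lay inside a protein-coding gene on the same strand or within 500 bp after its 3' end, against 20.1% of all protein-coding genes. Of these, mrpl-1 and mrps-27 started inside the neighbour, and for 18 the gap was between 80 and 120 bp, a spacing typical of worm operons. The share of such gaps over all genes was not computed. The genomic layout was used here in place of an operon map, so the runs are operon-like and not known operons. None of the 69 lies on the X chromosome, which holds 13.7% of all protein-coding genes. A further 18 had a divergent neighbour whose 5' end was within 500 bp, and each of those 18 carried a pooled region. Several of these summits, such as those of mrps-17 and mrpl-9, are also in the neighbour's window. The share with a region over all genes with such a neighbour was not computed, so the count is no trait of these genes.

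For the 28 genes behind a neighbour, the run was followed upstream to its first gene, which gave 27 runs, since mrps-2 and mrpl-4 share one. A pooled region lay within 500 bp of the first gene's 5' end for 22 of the 28 genes, and near the gene's own 5' end for 20. The share over all protein-coding genes was 32.5%, and first genes of runs over the whole genome were not counted apart. In the 16 with both, the first gene had the higher signal in 9 and the mitochondrial ribosomal protein gene in 7, so neither end was regularly the stronger. In these 16, the stretch around the gene's own 5' end also covers the 3' end of the neighbour ahead. Polymerase at the end of that neighbour and at the start of the gene cannot be told apart there.

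The widest gaps went both ways. Near its own 5' end mrps-11 had a pooled signal of 13.3, while W04D2.4 ahead of it had 62.6. mrpl-54 had 11.4 behind clsp-1 with 54.3, and mrps-2 had 9.56 behind natc-1 with 32.2. In the other direction, mrpl-23 had 23.2 behind fars-1, a cytosolic aminoacyl-tRNA synthetase gene, with 5.87, though this summit is also in the window of ech-1.2. mrpl-41 had 29.8 behind misc-1 with 12.5. mrpl-50 had 30.3 behind cct-2, a chaperonin subunit gene, with 15.4.

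The 4 genes behind a neighbour with no pooled region of their own had one at the head of the run. mrps-33 lies 2 genes behind F21D5.7, which had 33.8 at its 5' end. mrpl-4 follows mrps-2 after 105 bp, both on the same strand behind natc-1, and had no pooled region of its own against the 32.2 at natc-1. mrps-22 lies 3 genes behind rpb-6, which encodes a subunit shared by the nuclear RNA polymerases, with 11.2. mrpl-21 lies 3 genes behind T08A11.1, which had 7.31. A consensus peak stood within 500 bp of the first gene's 5' end in 6 of the 27 runs, against 3.44% of all protein-coding genes. In 3 of these, those of mrpl-32, mrps-21 and mrpl-13, a consensus peak lay in the window of the ribosomal protein gene as well. Genes in these 3 paragraphs that lie outside the naming rule were named after their values were seen.

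**Figure D4:**
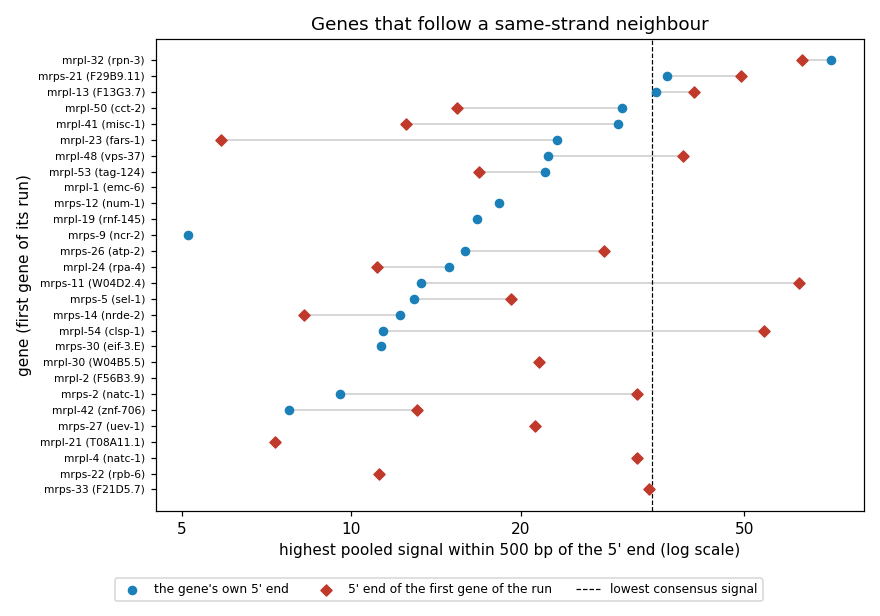
Highest pooled signal (log scale) within 500 bp of the 5' end, for the 28 genes whose 5' end lies inside a same-strand gene or within 500 bp after it (blue circles) and for the first gene of their run (red diamonds, named in brackets); a missing symbol means no pooled region, and the dashed line is the lowest consensus signal, 34.3. The red symbol is to the right for 9 of the 16 genes with both, as for mrps-11 at 13.3 behind W04D2.4 at 62.6.

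The replicates ordered the genes only in part alike. Over the 53 genes with a region in both, log2 signal correlated with a Pearson r of 0.525 and a Spearman rho of 0.407, against 0.622 and 0.560 over the 6936 protein-coding genes with both. These are correlations across genes that share 2 libraries. The summits of the replicates lay within 200 bp of each other in 32 of the 53 (60.4%), against 42.2% of all such genes. Replicate 1 gave the better rank in 33 of the 53 (62.3%), against 55.3% of all such genes.

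From each replicate alone, the 1328 regions of highest signal were also taken. In replicate 1 they reached 7 of the 69 genes, against 4.62% of all protein-coding genes, and in replicate 2 they reached 4 (5.80%), against 4.23%. The share in replicate 2 is thus near that of all genes. mrps-7, mrpl-32 and mrpl-28 were in both sets. In replicate 1 the others were mrps-6, mrps-16, mrps-21 and mrpl-41, and in replicate 2 the other was mrpl-17.

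The 5 widest differences in rank between the replicates were as follows. mrps-15 had a signal of 13.7 in replicate 1 (rank 4311) and 2.40 in replicate 2 (rank 28589). mrps-18C had 16.1 (rank 3170) and 2.57 (rank 26986). mrps-14 had 9.75 (rank 8104) and 2.49 (rank 27677), and mrpl-18 had 8.03 (rank 10918) and 2.40 (rank 28518). mrpl-19 went the other way, with 4.29 (rank 23218) in replicate 1 and 12.2 (rank 2514) in replicate 2. The highest regions of mrps-18C were different ones in the replicates, at -459 and 985 bp, and those of mrps-15 lay apart too, at -95 and -496 bp. Those of mrps-14 lay at -70 and -150 bp, those of mrpl-18 at -241 and -315 bp, and those of mrpl-19 at -134 and -123 bp.

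**Figure D5:**
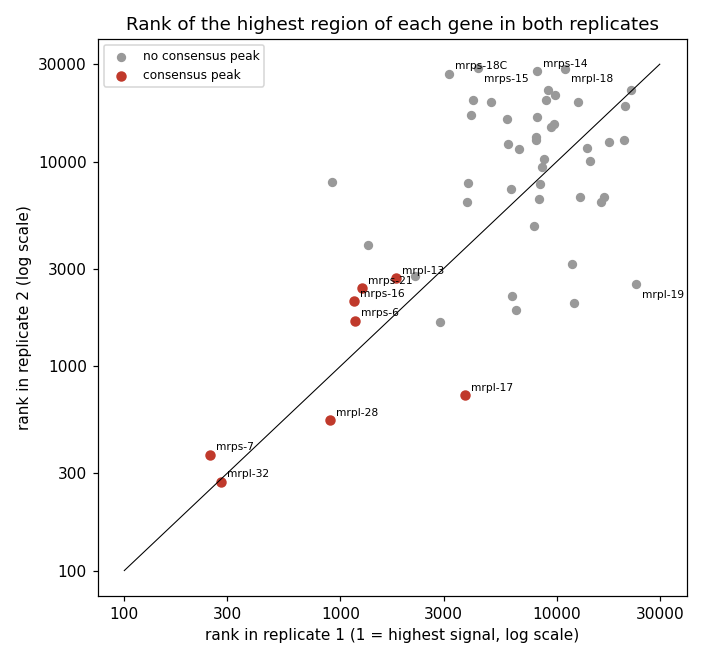
Rank of the highest region in replicate 1 against replicate 2, both on log scales with 1 the highest signal, for the 53 genes with a region in both, with consensus peaks in red; the line marks equal ranks. mrps-7 and mrpl-32 lie near the line, at ranks 249 and 369 and at 279 and 271, and mrpl-19 and mrps-15 lie far from it.

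The lists of other genes of mitochondrial translation are short, and single peaks decide their shares. Aminoacyl-tRNA synthetase genes for mitochondria were taken by symbol alone, as a letter followed by ars-2, and where each enzyme works was not checked. Of these 11 genes, 9 had a pooled region, with a median signal of 8.52. Only ears-2 (35.2), for the glutamate enzyme, had a consensus peak (9.09%, against 4.68% of all protein-coding genes), which is also in the window of uncp-18. The next were iars-2 (18.3) and yars-2 (17.0), neither with a region in replicate 2. All 4 genes for mitochondrial translation factors found by name had a pooled region and none had a consensus peak. They were led by gfm-1 (30.4), for an elongation factor G, with tufm-2 (13.6) and tufm-1 (11.9) for the elongation factor that brings tRNA. The 5 genes for upkeep and expression of mitochondrial DNA had none either, and their highest were mtss-1 (14.2), polg-1 (7.99, with a summit 9321 bp from its 5' end), for the mitochondrial DNA polymerase, and rpom-1 (7.36), for the mitochondrial RNA polymerase.

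Genes for other mitochondrial functions carried consensus peaks more often than the 4.68% of all protein-coding genes. The respiratory chain list, with subunits, assembly factors and ATP synthase, had 11 of 48 (22.9%) and a median pooled signal of 24.6, led by cox-5A (144; 91.2 in replicate 1 and 51.8 in replicate 2) and nduf-11 (56.7). The peak credited to cox-6B (74.3) lay 86349 bp from its annotated 5' end and in the window of Y71H2AM.20. Protein import had 3 of 13 (23.1%), with tomm-20 (73.1), an outer membrane receptor gene, tin-9.1 (36.9) and tin-9.2 (36.9), but 1 of 13 (7.69%) with a window of 250 bp upstream. The summit of tin-9.2 is also in the windows of dli-1 and exos-4.1. Chaperones, proteases and stress response genes had 6 of 14 (42.9%) and a median of 31.5, with ubl-5 (41.5), hsp-60 (39.8) and clpp-1 (39.3) highest. The summits of hsp-60 and clpp-1 lay 2824 and 1691 bp inside the gene, and that of clpp-1 is also in the window of mdt-22.

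The cytosolic ribosomal protein genes had higher signals. Of 78 cytosolic ribosomal protein genes, 73 (93.6%) had a pooled region, a share near the 89.9% of the mitochondrial ones. Their median signal was 30.7, against 14.9, and 33 (42.3%) had a consensus peak, against 8 of 69. With a window of 250 bp upstream the 2 counts were 8 of 78 (10.3%) and 7 of 69 (10.1%), against 3.81% of all protein-coding genes, so the contrast in consensus peaks was seen with the wider window and not with this one. The highest were rpl-3 (139), rpl-20 (127) and rps-12 (102), above every mitochondrial ribosomal protein gene. Of the 78, 8 lay inside or within 500 bp behind a same-strand gene, against 28 of the 69. No test was made between the lists, which were chosen with earlier results of these data known.

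Fixed words were searched on both strands in the 300 bases from 250 before to 50 after the annotated 5' end. TTTTCAG, the consensus at which spliced leaders and exons are joined, was found in 28 of 69 windows (40.6%), against 31.9% of those of all 19973 genes, and on the gene's strand in 27 (39.1%), against 23.8%. TATAAA was found in 23 (33.3%), against 37.9%. CTGCGTC was found in 3 (4.35%), those of mrps-7, mrpl-20 and mrpl-36, against 4.34%. TGACGTC was found in 1, that of mrps-10, against 2.85%. The copy of CTGCGTC printed for mrpl-32 lies farther upstream than this window reaches. None of the 4 words contains another, and a match is not a bound site.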

How the data were processed

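Lists of AMA-1 regions on build ce11 were used for both replicates, their pool and the consensus. Per the deposited text listing, each full list came from alignments and a further file it does not describe, and the consensus from an irreproducible discovery rate analysis of the replicate and pooled lists. The labels and files used name no caller, version or threshold. The signal of each region is the authors' deposited value and was used without rescaling, so libraries were compared by rank, presence or side by side. The deposited −log10 q-value was used only for an alternative ranking. Lists on ce10 were not used, since the annotation (Ensembl release 115, WBcel235) is on ce11.

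Summits, ranks, positions and unique shares (31-base words found once) were computed with Python 3.11.15, numpy 2.4.6, pandas 2.3.3, scipy 1.17.1 and matplotlib 3.10.9. Assignment of summits to genes was checked on simulated data. With 2 replicates in 1 group and no contrast, no test was run.

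The 69 genes and the other gene lists were chosen with earlier results of these data known. Named by rule were genes with a consensus peak, the 5 highest without, those with no region, the 5 of widest rank difference between replicates, mrps-5, and the 3 highest of each other list. Alternatives were other windows, overlap and assignment rules, each replicate alone, consensus peaks above their median signal, unique windows, other rankings and gaps.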

Additional observations from a re-analysis of the deposited data

How the results depend on the processing

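The count of 8 genes with a consensus peak was 3 among consensus peaks above their median signal, a smaller set. With either replicate left out, the 1328 highest regions of the other stood in for the consensus list and reached 4 to 7 genes. The consensus count was 12 when each summit went to the gene with the nearest 5' end. There mrpl-17 dropped out, and mrpl-23, mrpl-40, mrpl-51, mrpl-53 and mrps-11 came in. For the small subunit, 4 became 1 to 4 with those highest regions of a single replicate and 1 among the stronger consensus peaks. For the large subunit, 4 became 2 among the stronger peaks, and 7 when each summit went to the gene with the nearest 5' end, whatever the distance. In the 7 lists of other genes, 54 genes had a consensus peak, and 24 with a window of 250 bp, where cytosolic ribosomal proteins had 8 and protein import 1. With either replicate left out, the median signal was 5.91 to 9.69 in the list of the other, on each library's own scale. The cause of these shifts was not tested. The counts of genes with a pooled region (55 to 64), with a region in both replicates (43 to 56), with a summit near the 5' end (39 to 58), with the better rank in replicate 1 (30 to 33) and behind a neighbour (22 to 35) stayed within 1.5 times under the alternatives run. No paired analysis was possible because both replicates belong to 1 group. Depth is unknown, so absence from a list of 30000 regions is no measure of absent polymerase.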

Other observations

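Away from the mitochondrial ribosomal protein genes, 25 further copies of the 13-base word described at mrpl-32, mrpl-28 and mrps-16 were found in the genome. Of all 28 copies, 14 lay within 50 bp of a pooled summit and 5 within 50 bp of a consensus summit. The copy upstream of lsm-6 had a pooled signal of 73.2 (47.2 in replicate 1 and 25.3 in replicate 2), and that upstream of F13H8.2 had 55.0 (31.0 and 23.9). The copy between spd-2, a centrosome gene, and F32H2.10 had 27.8 (15.0 and 7.29). That upstream of C36E6.2 had 25 in the pool and 11.1 in replicate 2, with no region of replicate 1 within 50 bp, and that upstream of W03F9.1 had 20.8 in the pool and 19.5 in replicate 1. Copies upstream of arp-1, gex-2 and K02E2.1 had no region in any list within that distance, so the word also occurs without a listed region. These copies were looked up after the word was seen.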
